A study of Mus musculus with 54 samples.

Results

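The regions described here are stretches of the mouse genome in which KRAB zinc finger proteins (KZFPs) with 3 or more distinct zinc finger arrays had ChIP-seq peaks. Peaks of all 42 deposited lists that overlapped by at least 1 bp were merged, chromosomes X and Y were left out, and each merged region was given the number of arrays with a peak in it. The regions were thus chosen by the peak calls themselves, so their number of arrays, width and rank are descriptions. KZFPs with the same zinc finger array were counted once, so that the 42 KZFPs stand for 32 arrays. Of 20018 merged autosomal regions, 429 held peaks of 3 or more arrays (2.14%).

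Each KZFP comes from the cluster of such genes on distal chromosome 4 and was over-expressed with a C-terminal HA tag from a Sleeping Beauty transposon in F9, an embryonal carcinoma line of the mouse, and precipitated through the tag. Each had a single library, so no value below has a replicate. The libraries fall into 5 batches with 3, 3, 13, 20 and 3 lists, each with its own mixed input. Cells with the empty vector (4 libraries) served as negative controls and belong to batches 1, 2 and 4. Batches 3 and 5 have none of their own, but the authors removed from each list the peaks that overlapped those of any control. The controls and inputs, and the libraries of HGTC8 mouse embryonic stem cells, were not analysed here, the depth of a library cannot be read from its peak list, and the 42 lists held 25012 peaks, from 21 to 6183 a list. The authors kept peaks of at least 10-fold over input in 32 lists. Where fewer than 20 peaks remained they used 5-fold, in 10 lists. These 5-fold lists are Zfp268, Zfp600, Zfp978, Zfp979, Zfp980, Zfp981, Zfp_MB003, Zfp_MB004, Zfp_MB011 and Zfp_MB013. A count of arrays thus mixes both cutoffs.

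KZFPs are transcription factors that recognize DNA through an array of C2H2 zinc fingers and carry a KRAB domain, which recruits the corepressor TRIM28 and the histone methyltransferase SETDB1 to deposit H3K9me3. Many of them bind transposable elements, and in the mouse the young ones bind mainly endogenous retroviruses (ERVs) such as the intracisternal A particles (IAPs). A copy of an ERV holds a long terminal repeat (LTR) at either end and internal sequence between them.

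Some of the shared regions were alike in sequence. The 200 bp around the median summit of each region were aligned with one another, and 204 of the 429 regions (47.6%) fell into 8 families of at least 7 like regions, where like means an alignment of 100 bp or longer with 80% or more of its bases identical, directly or through other members. Another 48 regions were in families of 2 to 6, and 177 resembled no other shared region. The families are named here by the KZFP or the feature that marks them. One sequence of each is shown, because the sites recognized by different KZFPs can be read in it side by side. All are from the top strand of GRCm39, and capitals mark the sites of the motifs that the study derived for the KZFPs with a peak in the region. A site is an exact match to the letters of a motif on either strand. The motifs were derived from peaks of these same libraries, so a match is a description and not independent evidence of binding.

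The first sequence, chr17:12506658-12506857 in an intron of Map3k4, stands for the largest family, of 99 regions, in which all had a peak of Zfp_MB016. Its first run of capitals joins the motifs of Zfp_MB005 (bases 102 to 116) and Zfp_MB016 (bases 106 to 118), and the other is the site of Zfp_MB036 (bases 125 to 139).
Zfp_MB016 family: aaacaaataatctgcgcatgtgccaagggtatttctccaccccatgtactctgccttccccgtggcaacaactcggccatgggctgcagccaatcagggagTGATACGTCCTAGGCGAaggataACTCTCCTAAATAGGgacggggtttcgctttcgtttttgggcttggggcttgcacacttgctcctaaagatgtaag

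The next sequence, chr12:90943070-90943269, lies between genes and stands for a family of 38 regions, all with a peak of Zfp_MB022. Its long run of capitals joins the sites of Zfp992 (bases 61 to 74, on the bottom strand) and Zfp_MB022 (bases 67 to 81), and the next run is the site of Zfp_MB012 (bases 87 to 101).
Zfp_MB022 family: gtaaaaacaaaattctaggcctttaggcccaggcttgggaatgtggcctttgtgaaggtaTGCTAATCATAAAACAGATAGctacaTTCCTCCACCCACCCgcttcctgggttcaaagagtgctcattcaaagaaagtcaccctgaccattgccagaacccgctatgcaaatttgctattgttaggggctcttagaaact

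The sequence at chr12:19593403-19593602, in an intron of the pseudogene Gm6943, stands for 12 regions with peaks of Zfp6001, Zfp6002, Zfp6003 and Zfp_MB035. The first run of capitals holds the sites of Zfp6003 (bases 86 to 98) and Zfp6001 (bases 87 to 99), and the next holds those of Zfp6002 (bases 103 to 117) and Zfp_MB018 (bases 104 to 118).
Zfp6001 family: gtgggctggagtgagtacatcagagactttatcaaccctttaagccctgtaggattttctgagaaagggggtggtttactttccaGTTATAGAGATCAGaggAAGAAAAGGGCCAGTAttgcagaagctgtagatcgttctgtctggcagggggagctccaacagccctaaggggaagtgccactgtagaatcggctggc

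The sequence at chr12:24422567-24422766 lies between genes and stands for 11 regions bound by the array that Zfp992, Zfp993, Zfp_MB024, Zfp_MB027, Zfp_MB029 and Zfp_MB031 have in common. The run of capitals holds the overlapping sites of all 6 KZFPs (bases 96 to 111).
ERVB4 array family: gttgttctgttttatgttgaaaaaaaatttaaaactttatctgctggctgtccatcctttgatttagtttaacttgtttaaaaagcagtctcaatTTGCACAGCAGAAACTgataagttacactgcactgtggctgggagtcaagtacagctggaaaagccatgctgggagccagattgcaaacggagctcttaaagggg

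The sequence at chr13:81233957-81234156, in an intron of the long noncoding RNA 9330111N05Rik, is from a family of 19 regions, many of them built of an 81 bp unit in tandem. This region had peaks of Zfp980, Zfp981, Zfp_MB011 and Zfp_MB037. It had none of Zfp_MB016, which had one in 14 of the 19, whereas Zfp980 and Zfp_MB037 had one in 5 each. The site of Zfp980 and Zfp_MB011 (bases 11 to 25) recurs at bases 92 to 106, and that of Zfp_MB037 (bases 45 to 59) recurs at bases 126 to 140.
Tandem family: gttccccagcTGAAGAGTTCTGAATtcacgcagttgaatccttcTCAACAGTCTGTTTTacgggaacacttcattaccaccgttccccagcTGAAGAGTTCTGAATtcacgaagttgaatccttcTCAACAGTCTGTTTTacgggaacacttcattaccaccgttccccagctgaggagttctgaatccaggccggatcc

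The sequence at chr8:120063627-120063826, 7447 bp from Hsbp1, stands for 8 regions with a peak of Zfp_MB026. Capitals mark the sites of Zfp980 (bases 79 to 93) and Zfp_MB037 (bases 118 to 132). The Zfp_MB026 summit of this region, at 120063372, lies outside the window, and no site of Zfp_MB026 is marked in it.
Zfp_MB026 family: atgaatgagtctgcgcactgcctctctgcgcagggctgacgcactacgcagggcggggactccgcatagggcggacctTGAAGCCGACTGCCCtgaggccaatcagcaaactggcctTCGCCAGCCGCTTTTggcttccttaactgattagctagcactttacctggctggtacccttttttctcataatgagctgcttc

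In the Zfp_MB016 family, KZFPs with different arrays met on the same 200 bp. Of its 99 regions, 99 had a peak of Zfp_MB016, 85 of Zfp_MB005 (85.9%), 65 of Zfp_MB026 (65.7%) and 59 of Zfp_MB036 (59.6%). The study places Zfp_MB005, Zfp_MB016 and Zfp_MB036 on the LTR of IAPs. For Zfp_MB026 it lists the internal sequence of IAPs. The next list, that of Zfp_MB028, had a peak in 8 of the 99 regions. Of the family, 48 regions were intergenic, 41 lay in introns and 6 at promoters, and all 99 held peaks of 2 or more batches. The median region had 67 near-identical copies elsewhere in the genome.

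The sites within these windows had fixed spacing. The windows of a family were grouped by likeness of sequence, so a like spacing follows from that, here and in the families below. The motif of Zfp_MB005, TGATACGTCCTAGGC, occurred in 74 of the 99 windows (74.7%, exact 95% binomial interval 65.0% to 82.9%) and in 1.32% of all merged regions. That of Zfp_MB016 occurred in 76 windows and in 10.9% of all merged regions, and that of Zfp_MB036 in 54 windows and in 1.61%. In the 72 windows that held both, the motif centres of Zfp_MB005 and Zfp_MB016 were 3 bp apart, and the motifs overlapped. The centre of the Zfp_MB036 motif was 20 bp from that of Zfp_MB016 in all 47 windows with both, and it overlapped neither of the other motifs.

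The summits lay at different places in the windows. Relative to the centre of the Zfp_MB005 motif, and along the strand on which that motif reads as written, the median summit of Zfp_MB016 was at 0.50 bp (quartiles -6 and 10.5, 74 windows) and that of Zfp_MB005 at 6 bp (quartiles -5 and 17.2, 62 windows). The median summit of Zfp_MB036 was at 25.5 bp (quartiles 19 and 36, 54 windows) and that of Zfp_MB026 at -28 bp (quartiles -38 and -19, 54 windows). The interquartile ranges of Zfp_MB036 and Zfp_MB026, on either side of the motif, overlapped neither each other nor that of Zfp_MB016. The few summits of Zfp_MB028 (6 windows, on both sides of the motif, from -1841 to 1704 bp) and Zfp_MB001 (3 windows, median -418 bp) lay outside the windows.

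**Figure D1:**
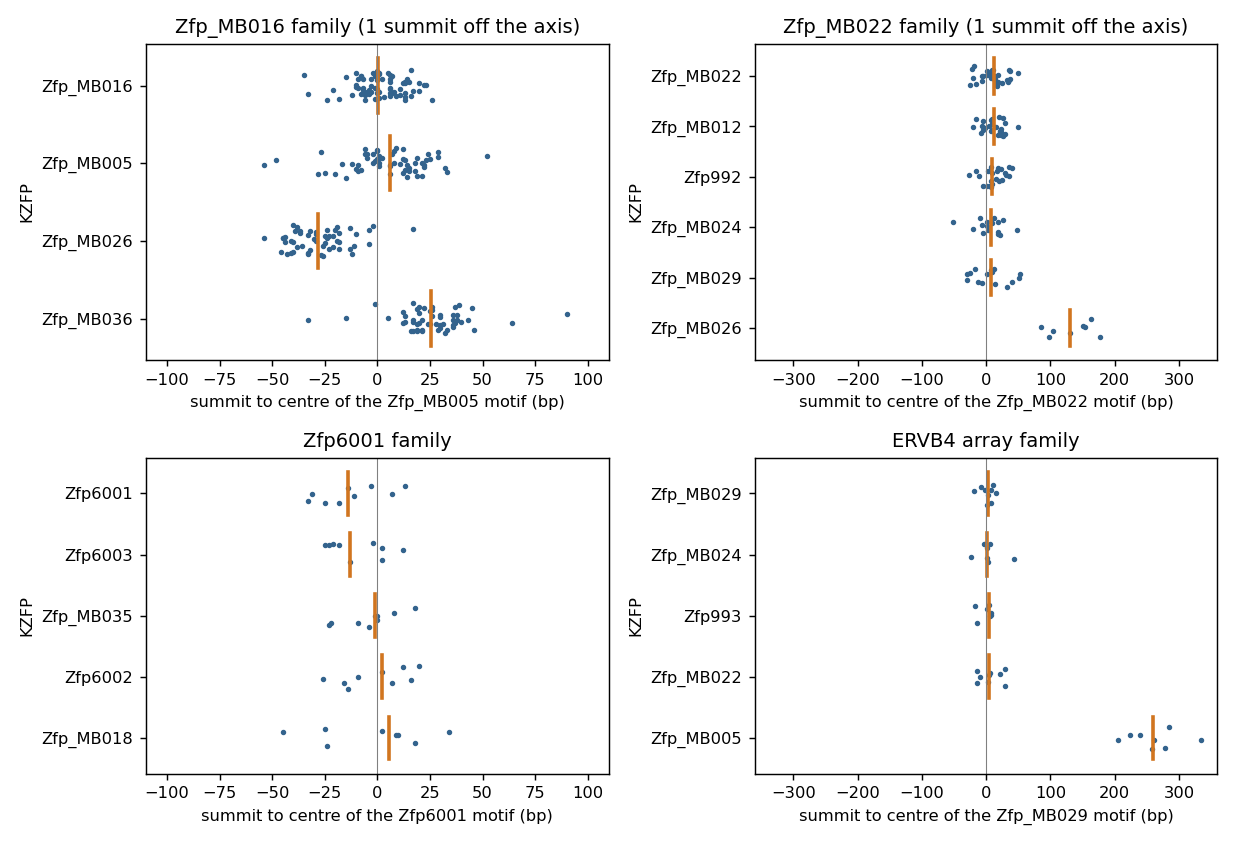
Distance in bp from the centre of a motif (grey line) to the summits of the KZFPs named on each axis, for 4 families of like regions, 1 point a region and an orange line at the median of all summits, those off the axis included. Of the 4 KZFPs plotted for the Zfp_MB016 family, the medians run from -28 bp for Zfp_MB026 to 25.5 bp for Zfp_MB036, and in the ERVB4 array family the summits of Zfp_MB005 lie apart, with a median of 260 bp.

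The peaks of Zfp_MB036 in this family went with its own motif. The study derived that motif from peaks of the same library, so the contrast is a description. Of the 54 windows of the family with the motif, 52 had a Zfp_MB036 peak (96.3%), with a median fold enrichment over input of 39.1, and of the 45 without it 7 had one (15.6%), with a median fold of 20.7. For Zfp_MB005 the shares were 62 of 74 windows with its motif and 23 of 25 without. Zfp_MB016 had a peak in all 99, with a median fold of 65.5 in the 76 windows with its motif and 55.6 in the 23 without.

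For the most frequent exact combination, Zfp_MB005, Zfp_MB016, Zfp_MB026 and Zfp_MB036 (26 regions), the strongest examples were in introns of Gm65601 and Slc47a2. At Gm65601, a long noncoding RNA gene, the folds over input were 50.2 for Zfp_MB005, 132 for Zfp_MB016, 29.7 for Zfp_MB026 and 36.3 for Zfp_MB036, with all 4 summits within 37 bp. At Slc47a2, which encodes a transporter of organic cations, they were 24.9, 61.7, 23.7 and 35.1 in the same order, within 80 bp. The same 3 KZFPs without Zfp_MB036 made up 25 regions, such as one in an exon of Atg2b, an autophagy gene, with folds of 97.9, 134 and 31.1 and summits within 172 bp. In an intron of Gm57315 the folds were 19.9, 117 and 90.2, and the summit of Zfp_MB026 lay apart from the others, so that the 3 spanned 1340 bp. A fold is the authors' value relative to the mixed input of a batch, and folds of different batches are not on 1 scale.

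The Zfp_MB022 family brought together KZFPs with similar arrays, as described below. Its 38 regions all had a peak of Zfp_MB022, 32 had one of Zfp_MB012 (84.2%) and 28 had one of Zfp992 (73.7%). The other 5 KZFPs with the array of Zfp992 had fewer, from 20 regions for Zfp_MB024 to 2 for Zfp_MB027. The study gives LTRIS2, an LTR, as the main element of Zfp_MB022 and Zfp_MB012 and as one of the elements of Zfp992. The motif of Zfp_MB022, TCATAAAACAGATAG, was in 32 of the 38 windows (84.2%) and in 1.12% of all merged regions. The motif of Zfp992 was in 33 windows and that of Zfp_MB012 in 25. The centres of the motifs of Zfp992 and Zfp_MB022 were 6.5 bp apart in all 32 windows with both, and those of Zfp_MB012 and Zfp_MB022 were 19 to 24 bp apart in 22 windows.

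The summits of these KZFPs lay close together. From the centre of the Zfp_MB022 motif the medians were 12 bp for Zfp_MB022, 12.5 bp for Zfp_MB012, 10 bp for Zfp992 and 8 bp for Zfp_MB024, with overlapping quartiles. The 9 summits of Zfp_MB026 in these windows had a median of 130 bp. Examples of the combination of Zfp_MB012, Zfp_MB022 and the array of Zfp992, which made up 24 regions, were in introns of Gm71516 and Cox16, a gene for the assembly of cytochrome c oxidase. At Gm71516 the folds were 14.5 for Zfp992, 16.8 for Zfp_MB012 and 20.3 for Zfp_MB022, with summits within 34 bp. At Cox16 they were 14.4, 14.3 and 38.0, within 32 bp.

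In the Zfp6001 family the motif matches lay at 2 adjacent places, which the summits did not separate. Zfp6001, Zfp6002, Zfp6003 and Zfp_MB035 had peaks in all 12 regions and Zfp_MB018 in 11, and the study places these KZFPs on the internal sequence of RLTR4, a gammaretroviral ERV. The motif of Zfp6001, TTATAGAGATCAG, was in 9 windows (0.25% of all merged regions), and that of Zfp6002 was in all 12 (0.43% of all). Their centres were 17 bp apart in the 9 windows with both. The motif of Zfp_MB018, in 4 windows, had its centre 1 bp from that of Zfp6002. The summits lay close together, and from the centre of the Zfp6001 motif their medians lay between -14 bp for Zfp6001 and 5.50 bp for Zfp_MB018, with overlapping quartiles. At the region printed above, the folds were 79.2 for Zfp6001, 90.1 for Zfp6002, 85.4 for Zfp6003, 22.4 for Zfp_MB018 and 189 for Zfp_MB035, which put it at the top of the first 3 lists.

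The ERVB4 array family held 2 places of binding. All 11 of its regions had peaks of Zfp_MB022 and Zfp_MB029, and 10 had one of Zfp_MB024 and 10 of Zfp_MB031. The motif of Zfp_MB024 and Zfp_MB029, AGTTTCTGCTGTG, was in 9 of the 11 windows and in 0.385% of all merged regions. The summits of these KZFPs and of Zfp_MB022 had medians between 1.5 and 9 bp from its centre. Those of Zfp_MB005, present in 8 of the 11 regions, were 205 to 335 bp away, with a median of 260 bp. At the region printed above the folds were 111 for Zfp_MB029, 73.2 for Zfp_MB024, 63.1 for Zfp_MB031, 56.6 for Zfp993, 56.4 for Zfp_MB027 and 51.4 for Zfp992, against 14.8 for Zfp_MB022 and 16.6 for Zfp_MB005.

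In the tandem family and the Zfp_MB026 family the summits were spread widely, over a median of 330 and 378 bp. In the tandem family Zfp_MB016 had a peak in 14 of 19 regions, Zfp_MB011 and Zfp_MB022 in 9 each and Zfp981 and Zfp992 in 8 each. The motif of Zfp_MB011, ATTCAGAACTCTTCA, was in 17 of the 19 windows and in 0.185% of all merged regions, although 9 of those 17 windows had a Zfp_MB011 peak. The median fold was 5.89 for Zfp_MB011 and 22.6 for Zfp_MB016. Among all shared regions, 20 (4.66%) had a window in which at least 80% of bases matched those at a shift of 2 to 100 bp, against 0.844% of all merged regions, and 10 of these 20 had a shift of 81 bp. The region of this family with most arrays, in an intron of the cytochrome P450 gene Cyp2c54, had 8, with folds from 5.10 for Zfp980 to 20.6 for Zfp992 and summits within 83 bp. In the Zfp_MB026 family, all 8 regions had a peak of Zfp_MB026, with a median fold of 34.4, 6 had one of Zfp_MB037 and 4 of Zfp980.

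A family of 10 regions was made of lists from batches 1 to 3. Zfp_MB005 and Zfp_MB010 had a peak in 7 of the regions, Zfp979 and Zfp_MB003 in 6, and Zfp978 and Zfp_MB004 in 5. The study lists L1 elements, which are non-LTR retrotransposons, for Zfp978, Zfp979, Zfp_MB003, Zfp_MB004 and Zfp_MB010. The median window had 14320 near-identical copies in the genome, the most of the 8 families. The region at chr3:10054323-10055602, between genes, had 8 arrays with folds of 75.6 for Zfp_MB005, 34.7 for Zfp_MB003, 32.7 for Zfp979, 25.6 for Zfp_MB010, 22.9 for Zfp986, 19.1 for Zfp978, 16.2 for Zfp6002 and 10.7 for Zfp6001, with summits spread over 799 bp. A like region at chr13:70023498-70024730 also had 8 arrays, led by Zfp_MB005 with 59.9 and Zfp_MB003 with 45.5, over 824 bp. The window of the former, chr3:10054870-10055069, is shown because this family has the most copies in the genome. Capitals mark the overlapping sites of Zfp_MB010 (bases 63 to 77) and Zfp978 (bases 64 to 78, on the bottom strand). The summit of Zfp978, at 10054912, is inside the window, but that of Zfp_MB010, at 10054729, is outside it. In the family, Zfp_MB010 had a peak in 5 of 6 windows with its motif (median fold 11.6) and 2 of 4 without (21.1). Zfp978 had one in 3 of 4 with its motif (6.05) and 2 of 6 without (13.9).
Zfp_MB010 family: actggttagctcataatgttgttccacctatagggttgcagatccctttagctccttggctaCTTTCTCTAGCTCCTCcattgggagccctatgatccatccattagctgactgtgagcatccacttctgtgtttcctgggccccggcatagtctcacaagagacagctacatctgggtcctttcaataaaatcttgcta

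**Figure D2:**
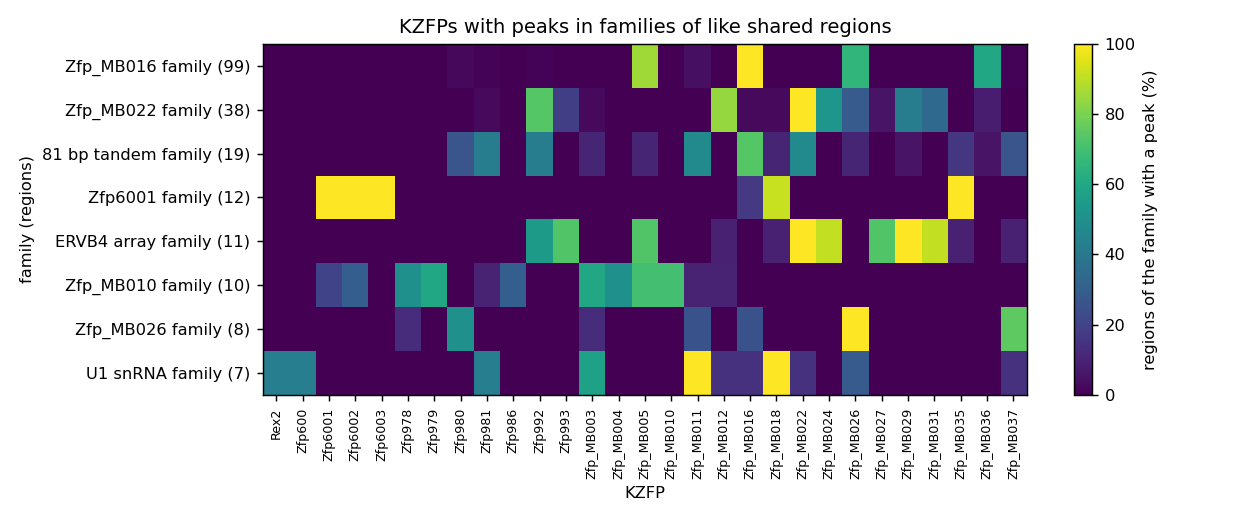
Share of the regions of each family (rows, number of regions in parentheses) with a peak of each KZFP (columns, KZFPs with at least 20% in some family), as a percentage. The sets of KZFPs differ between families but overlap. Zfp_MB016, Zfp_MB005, Zfp_MB026 and Zfp_MB036 lead the first row, and Zfp_MB016 also has 73.7% in the tandem family. Zfp_MB022 has 100% in both its own family and the ERVB4 array family.

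Of the 429 regions, 13 lay at promoters of small RNA genes, which is 3.03% (exact 95% binomial interval 1.62% to 5.13%) against 0.430% of all merged regions. A promoter here is any place within 1000 bp of a start, which can include the whole of a short gene. Of the 13, 7 were at genes of small nuclear RNAs (snRNAs) and 3 at genes of small nucleolar RNAs, and 1 was Gm55523, in the region that overlaps Neat1. A family of 7 regions includes Rnu1a1, a gene of the U1 small nuclear RNA, which recognizes the 5′ splice site. Gm25679, Gm26444, Gm24305 and Gm25890, also among the 13, belong to this family, and 6 of its 7 regions had a near-identical copy elsewhere. The interval above takes the 13 as independent, which regions of like sequence are not. All 7 regions of the family had peaks of Zfp_MB011, with folds from 5.96 to 9.27, and of Zfp_MB018, with folds from 10.2 to 17.6. The region at the snRNA gene Gm25679 on chromosome 12 had 6 arrays, with folds of 17.4 for Zfp_MB018, 16.0 for Zfp_MB026, 11.8 for Zfp_MB012, 11.6 for Rex2, 9.27 for Zfp_MB011, 7.62 for Zfp_MB003 and 5.17 for Zfp981. Its neighbour at Gm26444 had 5, led by Zfp_MB026 with 21.4 and Rex2 with 15.4. Among the others were Rn7sk, the RNA that holds the elongation factor P-TEFb inactive, Snord118, the U8 RNA, and Snord3b1 and Snord3b3, of the U3 RNA. The gene and its flank are shown at chr12:54765895-54766094, with capitals from the lower to the upper quartile of the summits.
U1 snRNA family: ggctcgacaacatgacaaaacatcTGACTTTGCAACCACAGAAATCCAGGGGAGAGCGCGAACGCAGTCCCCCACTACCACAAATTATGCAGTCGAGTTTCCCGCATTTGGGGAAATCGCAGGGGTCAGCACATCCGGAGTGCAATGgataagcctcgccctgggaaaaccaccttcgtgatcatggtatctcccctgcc

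The region with most arrays was the promoter of Polrmt, which encodes the mitochondrial RNA polymerase. It is at chr10:79574478-79576196, with the median summit 24 bp from an annotated start, and held peaks of 13 arrays, each from a single list, in 4 batches. The folds were 23.6 for Zfp_MB016, 21.8 for Zfp_MB035, 19.5 for Zfp982, 17.5 for Zfp_MB037, 17.3 for Zfp_MB025, 16.8 for Zfp_MB015, 15.9 for Zfp_MB018, 11.9 for Zfp980, 11.1 for Zfp_MB026, 10.7 for Rex2, 9 for Zfp_MB011, 6.68 for Zfp981 and 6.62 for Zfp600. The 13 summits lay within 153 bp, and all 13 lists had a peak over the same base. It was among the highest peaks of Zfp980 (percentile 99.1 of its list by fold), Zfp_MB037 (96.3) and Zfp_MB011 (93.6), and among the lowest of Rex2 (10.9) and Zfp_MB026 (11.5). In the sequence, chr10:79575133-79575332, capitals run from the lower to the upper quartile of the summits.
Polrmt: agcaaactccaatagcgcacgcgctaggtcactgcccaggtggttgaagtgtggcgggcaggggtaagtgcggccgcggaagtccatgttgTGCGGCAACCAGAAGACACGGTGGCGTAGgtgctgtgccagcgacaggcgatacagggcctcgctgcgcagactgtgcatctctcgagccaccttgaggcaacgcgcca

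A coding exon of Zfp777, itself a KZFP gene, came next with 11 arrays. In this region, chr6:48001250-48002533, the folds ran from 6.83 for Zfp981 to 21.4 for Zfp_MB037, whose highest peak it was, and the 11 summits lay within 67 bp. In the window chr6:48001702-48001901 capitals again run between the quartiles of the summits.
Zfp777: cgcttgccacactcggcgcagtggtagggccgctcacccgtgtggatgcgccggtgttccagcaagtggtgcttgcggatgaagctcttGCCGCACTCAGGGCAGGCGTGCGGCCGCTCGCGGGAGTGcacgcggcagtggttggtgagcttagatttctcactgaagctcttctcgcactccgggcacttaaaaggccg

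Zinc finger genes made up most of the few shared regions in coding exons. Of 6 such regions, 4 were in zinc finger genes, namely Zfp777, Zfp316, Zfp787 and Zfp13, against 26 of the 269 merged regions in coding exons away from promoters (9.67%). The other two were in Spred2, an inhibitor of Ras signalling, and Nanog, a pluripotency factor. The exons of Zfp316 (7 arrays), Zfp787 (3) and Zfp13 (3) each had peaks of Zfp980 and Zfp_MB011, as that of Zfp777 did. Both of these KZFPs have 5-fold lists. In Zfp316 the folds ran from 5.15 for Zfp_MB003 to 14.9 for Zfp_MB035, and the summits formed 2 places, since they spanned 1605 bp. In Spred2 they ran from 5.47 for Zfp_MB003 to 17.8 for Zfp_MB016, with 8 summits within 83 bp. In Nanog there were 3, with folds of 5.78 for Zfp980 and 5.90 for Zfp981, both in 5-fold lists, and 14.1 for Zfp_MB035. In all, 11 shared regions (2.56%, exact 95% binomial interval 1.29% to 4.54%) were at or in a zinc finger gene, against 1.22% of all merged regions. Of these 11, 3 were at promoters and 3 belonged to the Zfp_MB022 family and lay in introns of Zfp951, Zfp975 and Zfp808.

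Promoters made up about as large a share of the shared regions as intergenic sequence and introns did. The median summit was within 1000 bp of an annotated start in 140 of 429 regions (32.6%, exact 95% binomial interval 28.2% to 37.3%), and in 27.3% of all merged regions. Most, 95, were at protein-coding genes, 25 at long noncoding RNA genes and 7 at snRNA genes. The 92 at protein-coding genes and outside the families had a median GC content of 69.5% and a median ratio of observed to expected CpG of 0.858. Over the 4123 merged regions at protein-coding promoters these medians were 67.5% and 0.788, and over all the shared regions the median GC was 51.5%, the same as over all merged regions. Of the 92, 69 had a peak of Zfp982 (75%) and 51 one of Zfp_MB016 (55.4%), which have the second and the first longest lists and had peaks in 54.2% and 24.7% of the 4123. In the 478 of the 4123 with 2 arrays the shares were close to those of the 92, at 70.7% for Zfp982 and 51.9% for Zfp_MB016. Without the list of Zfp982, 22.8% of the shared regions were at promoters. The promoter share of all merged regions without that list was not computed, so 27.3% is not its counterpart.

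**Figure D3:**
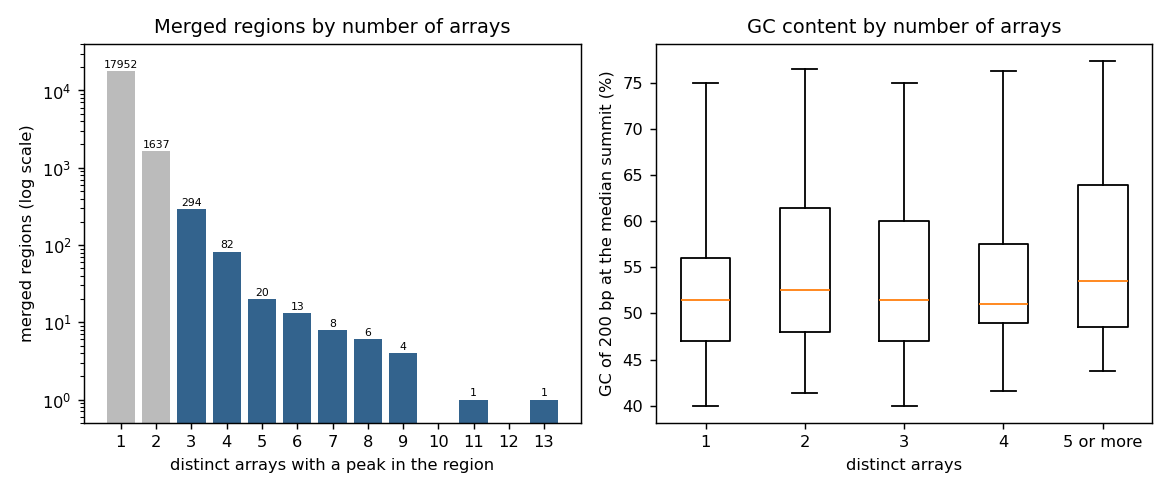
Left, number of merged regions (log scale) by the number of distinct arrays with a peak, with the 429 shared regions in blue. Right, GC content of 200 bp at the median summit by number of arrays, with boxes from the lower to the upper quartile, lines at the median and whiskers from the 5th to the 95th percentile. The median is 51.5% for 1 array and 53.5% for 5 or more, and the upper quartile is 56.0% and 64.0%.

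Other promoters with many arrays were those of Inpp5f, an imprinted gene for a phosphoinositide phosphatase, Gm45844, Hmgxb4, which encodes a protein with an HMG box, and Selenot, which encodes a selenoprotein. At Inpp5f (9 arrays) the folds ran from 5.51 for Zfp_MB003 to 20.1 for Zfp_MB018, with summits within 241 bp. At Gm45844 (9 arrays in 10 lists) the folds ran from 5.98 for Zfp981 to 17.4 for Zfp_MB035, and the 10 summits lay within 6 bp. This is the narrowest spread of the 15 regions with most arrays, where ties in the number of arrays were broken by the number of lists and then by the median rank of the peaks, and the 30 bases at its centre, chr7:7281010-7281039, are a run of tcagacagagggacagagagagagacttag. At Hmgxb4 (8 arrays) Zfp_MB016 led with 38.8 and Zfp_MB035 followed with 27.4, and at Selenot (8) Zfp_MB035 led with 22.2 and Zfp_MB025 followed with 18.7. The promoter of the long noncoding RNA Gm57020 had 8 arrays, from 5.80 for Zfp_MB011 to 20.3 for Zfp_MB035, within 82 bp. The merged region on chromosome 19 that overlaps Neat1, the RNA of the paraspeckles, was 7938 bp wide with 9 arrays, of which at most 8 had a peak over the same base.

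A region with 9 arrays lay over 10000 bp from any gene, at chr7:137118274-137118950. Its folds ran from 9.36 for Zfp981 to 16.6 for Zfp_MB035, and it was the highest peak of Zfp_MB011 and close to the top for Zfp981 (percentile 99.1) and Zfp980 (96.5). The window is a tandem repeat, in which 96% of bases match those 51 bp away, with 12 copies of TGACCTTG. This octamer, chosen after the sequence was seen and read on either strand, was in 1.86% of the windows of shared regions and in 1.66% of all, and it is the core of the known recognition sequence of the estrogen-related receptors. The window chr7:137118449-137118648 is shown for its repeats, with capitals between the quartiles of the summits.
Intergenic region: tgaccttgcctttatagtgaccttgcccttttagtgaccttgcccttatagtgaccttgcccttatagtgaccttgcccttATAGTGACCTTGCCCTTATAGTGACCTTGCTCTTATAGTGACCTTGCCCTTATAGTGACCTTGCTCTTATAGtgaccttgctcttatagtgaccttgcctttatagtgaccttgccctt

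A wide region in an intron of Dhrsx on chromosome 4 had 7 arrays over 5499 bp, with folds from 5.44 for Zfp_MB003 to 25.3 for Zfp982 and summits spread over 2439 bp.

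**Figure D4:**
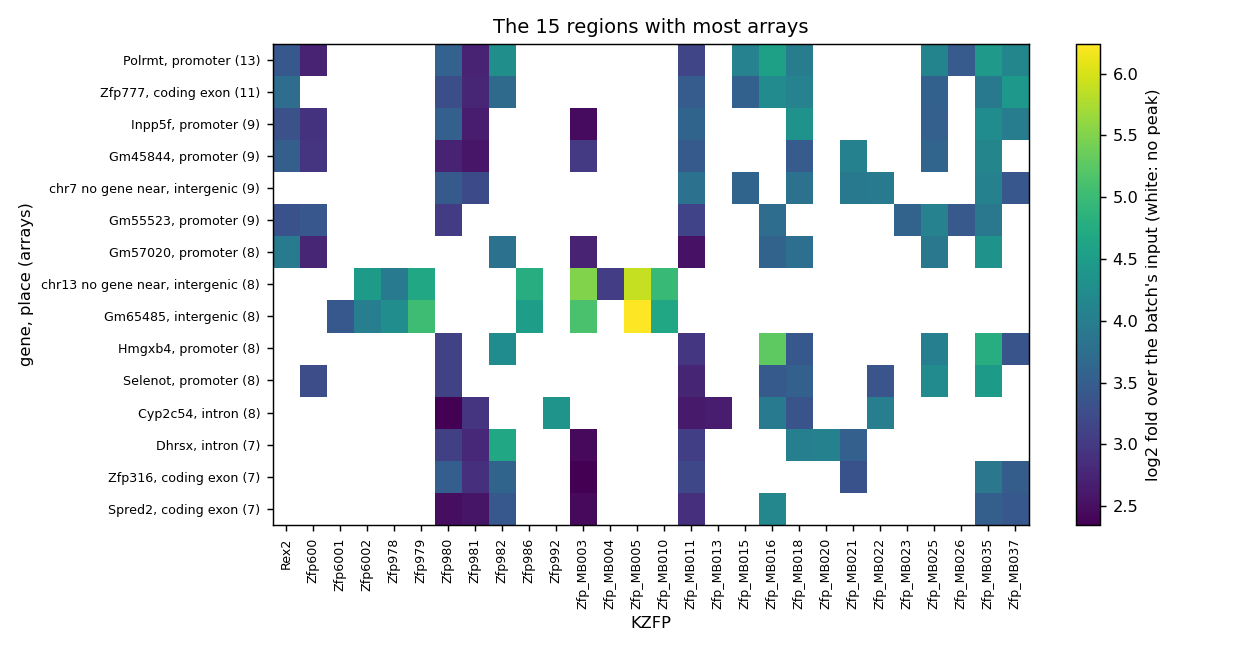
Fold enrichment over the input of the batch (log2) of each KZFP with a peak (columns) in the 15 shared regions with most arrays (rows, number of arrays in parentheses). White cells have no peak. Zfp_MB011 has a peak in 13 of the 15 rows, and the 2 rows of the Zfp_MB010 family have another set of KZFPs.

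Immediate early and stress genes, a list of 32, gave 6 of the 429 regions (1.40%, exact 95% binomial interval 0.515% to 3.02%) and 24 of all merged regions (0.120%). The 6 were at Fos, Jund, Egr1, Ier2, Ddit3 and Hsp90aa1. Zfp_MB011 and Zfp_MB025 had peaks at Fos, Jund, Egr1 and Ier2, which encode transcription factors and an early response protein. At Fos the folds were 23.6 for Zfp_MB025, 11.9 for Zfp6001, 11.2 for Zfp_MB011, 5.52 for Zfp_MB003 and 5.27 for Zfp600. At Jund they were 21.6 for Zfp_MB025, 14 for Zfp982, 10.9 for Zfp6003, 10.7 for Zfp6001 and 6.19 for Zfp_MB011. At Egr1 they were 19.7 for Zfp_MB025, 14 for Zfp_MB016, 12.5 for Zfp_MB011 and 9.21 for Zfp600. The Egr1 summits did not lie at a common place. They were at 34994737, 34992925, 34994482 and 34996368 of chromosome 18 in the same order. Histone genes held 30 of all merged regions (0.150%) and 2 of the shared ones (0.466%), which were H1f2, with 5 lists and folds up to 16.5 for Zfp_MB025, and H4c1, with 3 lists and folds of 11.0, 11.4 and 11.0. Genes of the transcription machinery held 43 of all merged regions and 2 of the shared ones, Polrmt and Gtf3c6, a subunit of the factor TFIIIC. At Gtf3c6 the folds were 13.3 for Zfp_MB018 and, in 5-fold lists, 8.28 for Zfp_MB011 and 6.18 for Zfp600. The promoter of Zbtb7a, a transcriptional repressor gene, had 6 arrays with summits within 39 bp and folds from 5.10 for Zfp_MB011 to 21.0 for Zfp_MB035. Imprinted genes held 13 of all merged regions and pluripotency genes 18, with 1 shared region each, Inpp5f and Nanog. No shared region was at a gene of the cytosolic ribosomal proteins, which held 29 of all merged regions, or of the mitochondrial ribosome, which held 19, where 2.14% of all merged regions were shared.

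Many of the arrays that met in a region are themselves alike. The fingers of each array were compared through the 4 DNA-contacting residues of each in the study's table, and the number of fingers in the same order in both was counted. This comparison was added after the data were seen. Zfp_MB005 and Zfp_MB016, with 14 and 13 fingers, have 12 in common, and they met in 107 shared regions, the most of any pair, or 80.5% of those of Zfp_MB005 and 51.2% of those of Zfp_MB016. All 9 fingers of Zfp_MB022 and all 9 of Zfp_MB012 are in the 11-finger array of Zfp992, with which they met in 57 and 37 shared regions. The 18 fingers of the Zfp6001 array are all in Zfp6002, with which it met in 23 regions. Other frequent pairs are not alike. Zfp_MB016 and Zfp_MB026 have 2 fingers in common and met in 92 regions, Zfp_MB016 and Zfp_MB036 have 2 and met in 61, and Zfp982 and Zfp_MB016 have 1 and met in 59.

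Over all 496 pairs of arrays, the median number of shared regions was 4 for the 33 pairs with at least 75% of the shorter array in common and 1 for the other 463. No shared region was held by 13 of the 33 (39.4%) and 191 of the 463 (41.3%). Arrays linked by this measure, directly or through other arrays, were then counted once, which leaves 15 groups. A group can thus hold pairs below 75%. Zfp600 and Zfp_MB025, for example, have 52.9% in common and are in the largest group, of 10 arrays. Of the 429 regions, 218 (50.8%) held 3 or more groups, 155 held 2 and 56 held 1. All 10 regions of the Zfp_MB010 family held 3 or more groups, and so did 45 of 99 in the Zfp_MB016 family, 4 of 38 in the Zfp_MB022 family and none of 12 in the Zfp6001 family, of which 10 held 1 group. Polrmt held 7 groups, Zfp777 and the intergenic repeat on chromosome 7 held 6, Zfp316, Dhrsx and Spred2 5, Hmgxb4 4 and Inpp5f, Gm45844, Selenot and Gm57020 3. Fos and Gtf3c6 held 1, although no pair of the arrays at Gtf3c6 reaches 75%, with 60% to 72.7% in common.

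Libraries of the same array gave a check on single lists. In the 68 shared regions with the array of Zfp992, more than 1 of its 6 libraries had a peak in 34 (50.0%). For the 3 libraries of the Zfp6001 array it was 23 of 84 (27.4%), for Zfp_MB028 and Gm21411 6 of 20, for Zfp_MB003 and Zfp_MB011 22 of 135 (16.3%) and for Zfp979 and Zfp_MB021 2 of 27 (7.41%). Most shared regions with Zfp_MB003 or Zfp_MB011 thus had a peak of 1 of these KZFPs only.

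The lists gave very different shares of their peaks to shared regions. The share was highest for Zfp600, with 29 of 37 autosomal peaks (78.4%, exact 95% binomial interval 61.8% to 90.2%), Zfp_MB025 with 29 of 44 (65.9%), Zfp980 with 48 of 88 (54.5%) and Zfp_MB037 with 25 of 49 (51.0%). It was lowest for Zfp_MB014, with 12 of 1146 (1.05%). The 3 longest lists gave small shares, with 212 of the 5813 peaks of Zfp_MB016 (3.65%), 132 of the 3921 of Zfp_MB026 (3.37%) and 101 of the 4533 of Zfp982 (2.23%), while 134 of the 714 peaks of Zfp_MB005 (18.8%) lay in shared regions. The authors kept peaks of at least 5-fold in 10 lists and of at least 10-fold in 32, and the median share was 32.2% in the first (5.00% to 78.4%) and 19.1% in the others (1.05% to 65.9%), with overlapping ranges. A 5-fold list had a peak in 185 of the 429 regions (43.1%). Binomial intervals cover counting error only.

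**Figure D5:**
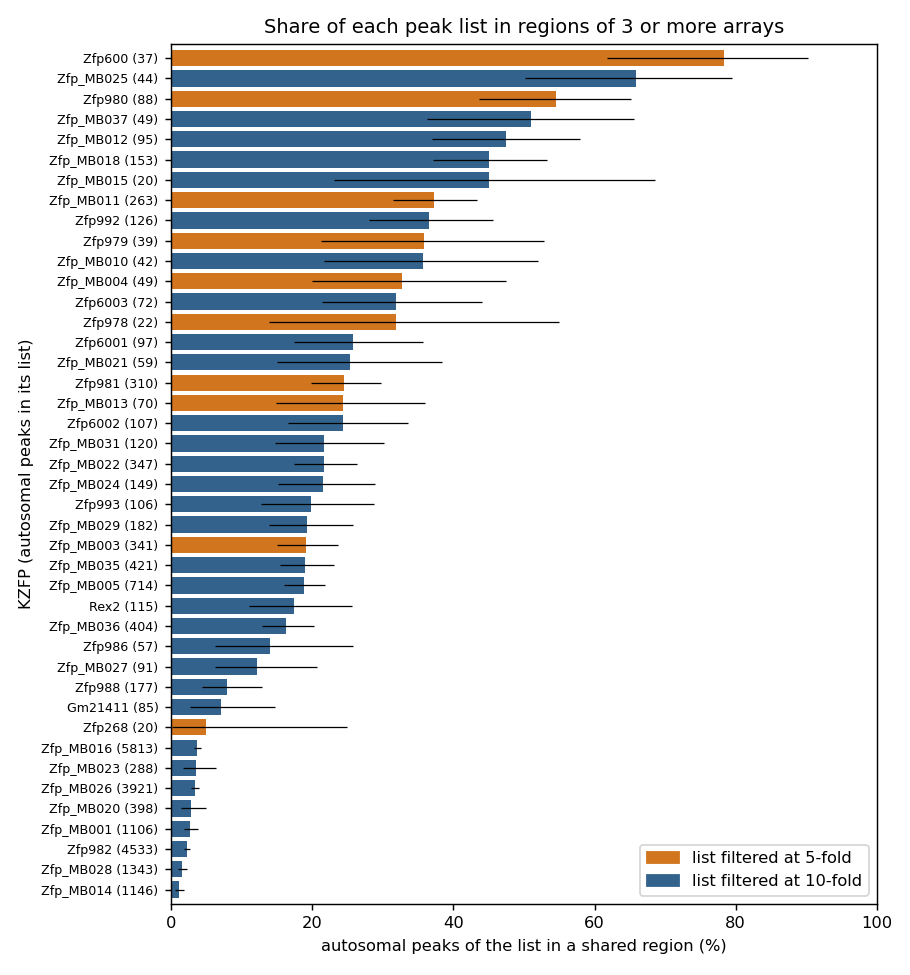
Percentage of the autosomal peaks of each list that lie in a region of 3 or more arrays, with exact 95% binomial intervals (counting error only), lists filtered at 5-fold in orange and at 10-fold in blue, and the number of autosomal peaks in parentheses. Shares run from 1.05% for Zfp_MB014 to 78.4% for Zfp600, and the lists over 1000 peaks are all under 4%.

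The median width of the shared regions was 1068 bp, and their median peak was at percentile 62.4 of its list by fold. A near-identical copy of the window, at least 180 bp at 95% identity or more, was found elsewhere in the genome for 229 of 429 (53.4%, 48.5% to 58.2%), and for 34.9% of all merged regions. In the 8 families it was 177 of 204 (86.8%) and at protein-coding promoters outside them 3 of 92. The authors kept 1 of several equally good alignments at random, so which copy of a repeat holds a peak depends on that choice, and its part in these counts was not tested. Just inside the threshold, 294 regions with 3 arrays had a median GC of 51.5%, 31.3% at promoters and 54.1% with a copy, and just outside it 1637 regions with 2 arrays had 52.5%, 36.8% and 40.1%.

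In 408 of the 429 regions (95.1%) at least 3 arrays had a peak over the same base, and the median distance between the outermost summits was 123 bp (quartiles 41 and 433). Peaks came from 2 or more batches in 382 regions (89.0%), from 2 in 197, 3 in 166 and 4 in 19, and 47 regions rested on 1 batch. Without batches 3 and 5, which have no empty vector control of their own, 121 regions of 3 or more arrays remained by the same rule, and 41.3% of them were at promoters. The matching share of all merged regions was not computed.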

How the data were processed

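The files used are 42 lists of ChIP-seq peaks, 1 library each; the other 12 of 54 labelled samples (4 empty vector controls, 5 mixed inputs and 3 HGTC8 libraries) were not analysed here. The authors aligned reads to GRCm39 with BWA, retaining 1 of several equally good alignments at random, and called peaks with MACS2 against the mixed input of the batch. They removed peaks that overlapped those of empty vector cells and applied cutoffs on the q value and the fold. The submitters' processing notes name MACS2 2.2.7.1, SAMtools 1.19 and deepTools 3.5.4. The deposited fold enrichment, a ratio over input, was used to rank each peak among all peaks of its list, X, Y and scaffolds included. The deposited −log10 q was used in 1 alternative, and the deposited −log10 p and display score entered no result. Peaks on scaffolds (37) were left out of merging.

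Summits are the highest by fold of each list in a region, and windows are 200 bp around the lower median of them. Copies, families and motif sites were found with blastn 2.17.0 and Python (pandas 2.3.3, pysam 0.24.0, scipy 1.17.1), with genes from GENCODE vM39. Merging was tested on simulated peaks. With no replicates, no test between groups was made. The members and lists were chosen with earlier results of these data known.

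The regions named are the 15 with most arrays, at most 3 for each gene list, and the 2 with the highest lowest rank for each of the 3 most frequent array combinations. Regions outside this rule, such as those whose sequences are printed, the other small RNA genes, Zfp787 and Zfp13, and Ier2, Ddit3 and Hsp90aa1, were chosen after their values were seen. The gene of a region is one with a start within 1000 bp, else the one that holds the summit, else the nearest within 10000 bp. The comparison of zinc fingers was added after the data were seen.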

Additional observations from a re-analysis of the deposited data

Results flagged for a closer look

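Chromosomes X and Y were outside the rule and entered above only the list totals and the ranks within lists, and 36 of their 1095 merged regions held peaks of 3 or more arrays (3.29%), 22 on X and 14 on Y. Of these 36, 28 had a near-identical copy elsewhere, and the KZFPs with most of them were Zfp_MB011 (16), Zfp_MB035 (15) and Zfp980 (13). On scaffolds, 1 of 28 merged regions held 3 or more arrays, with 6.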

How the results depend on the processing

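No paired analysis was possible because each KZFP has 1 library. No count below has a replicate error, the depth of the libraries cannot be read from the peak lists, and a region missing from a list may have been under its cutoff. Of 102 other values, 56 stayed within the interval of the reported value or, for the number of regions, within 1.5 times it. Those numbers were 305 with overlapping summit windows, 307 without the 5-fold lists, 318 with a fold of at least 10, 367 with a −log10 q of at least 10, 367 with 1 library an array and 465 with X and Y. The cause of the larger changes was not tested. Leaving out 1 list at a time gave 283 (without Zfp_MB016) to 429 shared regions, 22.8% (without Zfp982) to 35.5% at promoters, 48.2% (without Zfp_MB005) to 62.5% with a copy, 94.4% to 96.8% with a base under 3 arrays, 85.9% to 91.0% in 2 or more batches, a median summit spread of 90.5 (without Zfp982) to 152 bp, a median GC of 50.0% (without Zfp_MB016) to 52.5% and a median percentile of 61.1 to 64.0.

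In the other alternatives, values are given in the order of number of regions, promoter share, copy share, share with a base under 3 arrays, share in 2 or more batches, summit spread, GC and percentile, as far as they moved. With the 100 highest peaks a list there were 105 regions, 25.7% at promoters, 99% with a common base, 82.9% in 2 or more batches, a spread of 56 bp, a GC of 48.5% and percentile 80.7. With a fold of at least 15 there were 114 regions, 20.2% at promoters, 61.4% with a copy, 93.9% in 2 or more batches, 71 bp, 50.2% GC and percentile 84.4, and with at least 10 the common base was in 92.5% and the spread 92 bp. Without batches 3 and 5 there were 121 regions, 41.3% at promoters, 35.5% with a copy, 90.1% with a common base, 57.9% in 2 or more batches, 271 bp and percentile 59.7. Without the 3 longest lists there were 203 regions, 48.3% with a copy, 99% with a common base, 83.3% in 2 or more batches, 84 bp and 49.0% GC. Without the 5-fold lists the common base was in 92.2%, 91.9% were in 2 or more batches and the spread was 89 bp. Joining summits within 100 bp gave 266 regions, 27.4% at promoters, 100% with a common base and 45 bp, and overlapping 200 bp summit windows gave 100% and 51 bp. Arrays linked through fingers in common and counted once a group, an alternative chosen after seeing the data, gave 218 regions, 83.0% in 2 or more batches and 228 bp. A −log10 q of at least 10 gave percentile 65.5, a 100 bp window a GC of 54.0%, a promoter distance of 2000 bp 37.5% at promoters, and a copy identity of 90% and 99% gave 59.7% and 32.2% with a copy.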
